A study of Mus musculus with 9 samples.

Results

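Notch receptors, ligands and targets were measured by RNA sequencing in endothelial cells (ECs) sorted from the bone marrow (BM) of mice. The set holds 10 genes, the receptors Notch1, Notch2 and Notch4, the ligands Dll1, Dll4, Jag1 and Jag2, and the target genes Hes1, Hey1 and Hey2. They were found by gene name among the 46078 genes of the read count table, and all 10 were present and passed the filter on low counts. The libraries came from wild type B6 mice and fell into 2 sorted fractions, 4 libraries of Sca-1+ ECs (library 7, 13, 15 and 19, from the end numbers of their titles) and 5 of Sca-1- ECs (library 8, 10, 14, 16 and 22). Both fractions were gated as CD45-, Ter119- and CD31+ cells, that is without the pan-leukocyte and erythroid surface markers and with the adhesion molecule CD31 (the gene Pecam1). The study refers to them as Sca-1high and Sca-1low BM ECs and related them to arterioles and to sinusoids, and the comparison asks how the fractions differ. Age and sex were not given, and nothing states that the libraries came from separate animals, so p-values measure the spread between these libraries, which may be technical.

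Notch receptors are membrane proteins that are cut after binding a ligand on a neighbouring cell. The freed intracellular part enters the nucleus, binds the DNA-binding protein RBPJ with Mastermind-like coactivators, and switches on genes of the Hes and Hey families, which encode transcriptional repressors. In blood vessels the pathway is known for setting arterial identity, with Dll4 and Notch1 limiting sprouting, and in the marrow endothelial Notch ligands are known to act on blood stem cells.

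RBPJ recognises the core sequence TGGGAA, and the windows from 250 bases before to 50 bases after the start of each gene (RefSeq, GRCm38.p6) were searched for it on either strand, where the other strand reads TTCCCA. Of the 32851 windows of all genes, 25.6% held a match and 3.79% held at least 2. Windows were given for 8 of the 10 genes, 9 windows in all, and 1 of the 9, that of Hey2, held the core, with 2 matches. Hes1 and Hey1 were not matched to a window. Of 14 windows of 13 other target genes, 3 held a match, in Hes5, Hes7 and Kdr. The windows of Hey2 (chr10:30842734-30843033, minus strand) and of Hes5 (chr4:154960673-154960972, plus strand) are printed 5′ to 3′ because each has 2 matches, which are in capitals, and because Hey2 is one of the set while Hes5 is a target that did not pass the test of expression.

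Hey2: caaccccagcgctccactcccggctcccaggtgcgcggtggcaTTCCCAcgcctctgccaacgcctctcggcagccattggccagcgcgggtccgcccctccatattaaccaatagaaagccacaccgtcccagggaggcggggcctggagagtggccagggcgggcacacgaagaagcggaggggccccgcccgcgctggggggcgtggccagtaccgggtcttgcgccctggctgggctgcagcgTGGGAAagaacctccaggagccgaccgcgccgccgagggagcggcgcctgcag

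Hes5: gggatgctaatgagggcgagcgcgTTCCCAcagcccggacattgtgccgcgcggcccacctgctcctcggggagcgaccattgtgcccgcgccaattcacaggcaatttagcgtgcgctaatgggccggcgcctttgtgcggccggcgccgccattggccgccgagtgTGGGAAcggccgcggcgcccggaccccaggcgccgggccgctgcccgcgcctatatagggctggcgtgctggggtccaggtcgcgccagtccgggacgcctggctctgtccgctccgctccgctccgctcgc

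In Hey2 the first bases of the matches lay 3 bases upstream of the start on the strand of the gene and 207 bases upstream on the other strand, and in Hes5 they lay 82 and 226 bases upstream, again 1 on each strand. A match describes the letters of the window and is not evidence of binding.

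The libraries held 21581653 to 25959818 counts in total, with similar ranges in both fractions. Markers of other cells differed between the fractions. In Sca-1- libraries the summed level of 16 megakaryocyte genes was 27800 to 120000 CPM (counts scaled to library size, with library sizes adjusted by TMM), against 107 to 259 CPM in Sca-1+ libraries, and 16 of 16 were lower in Sca-1+ cells. The same held for 16 of 16 general leukocyte genes (3700 to 6760 against 113 to 191 CPM) and for 10 of 12 erythroid genes (1200 to 2730 against 76.4 to 259 CPM). Of 25 general endothelial genes, 22 were higher in Sca-1+ cells and 1 was lower, with sums of 19300 to 22800 against 1720 to 4750 CPM. Cdh5, the adhesion protein VE-cadherin of endothelial junctions, was at 264.3 ± 27.17 CPM in Sca-1+ and 7.14 ± 3.916 CPM in Sca-1- libraries, whereas Pecam1, used in the gate, was at 1399 ± 260.8 and 836.1 ± 612.7 CPM (SD, n = 4 and n = 5; edgeR adjusted p = 0.25). Itga2b, the megakaryocyte and platelet integrin CD41, was at 10.8 ± 0.7833 against 12390 ± 7938 CPM, and Ptprc, which encodes the CD45 of the gate, was at 0.8433 ± 1.205 against 28.87 ± 14.06 CPM. Of 8 arterial endothelial genes 7 were higher in Sca-1+ cells and 0 were lower (1590 to 2150 against 42.9 to 224 CPM), and of 10 sinusoidal endothelial genes 7 were higher and 2 were lower (795 to 1360 against 378 to 615 CPM), so that the sinusoidal sum too was higher in every Sca-1+ library. In that list Stab2, a scavenger receptor of sinusoids, was at 277.8 ± 120.1 against 12.18 ± 16.34 CPM, and Lyve1, a hyaluronan receptor, at 1.263 ± 1.74 against 96.41 ± 42.19 CPM, both chosen after their values were seen. Smooth muscle and pericyte genes moved the same way as most endothelial genes, with 8 of 12 higher in Sca-1+ cells and 0 lower. Their summed levels were 687 to 1670 against 20.3 to 97.5 CPM, and Acta2, smooth muscle actin, was at 254.9 ± 151.6 against 9.361 ± 6.893 CPM. Neutrophil genes overlapped between the fractions (9.29 to 767 against 179 to 802 CPM), as did B and plasma cell genes (118 to 307 against 16.6 to 318 CPM). The sum of marrow stromal and osteoblast genes was 545 to 2870 against 2880 to 30900 CPM, but of these 10 genes 4 were higher in Sca-1+ cells and 2 were lower. In that sum Col1a1, chosen after its values were seen, was at 165.3 ± 163.1 against 12160 ± 9667 CPM. The Sca-1+ libraries thus held endothelial markers at high levels, while in the Sca-1- libraries most endothelial markers were low beside a high level of megakaryocyte genes. In these bulk samples fewer cells of a type and less RNA per cell cannot be told apart. The running numbers that open the titles did not overlap between the fractions, so an order of handling and the fraction cannot be told apart.

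Of the 10 Notch genes, 9 were higher in Sca-1+ ECs (edgeR quasi-likelihood test, Benjamini-Hochberg adjusted p under 0.05 over 15937 genes) and 0 were lower. Only Notch2 did not pass the test. Among all genes tested, 23.3% were higher and 21.4% were lower, so a call in either direction was common. In the same 9 genes every Sca-1+ library lay above every Sca-1- library, which was true of 24.8% of all genes tested, while for 18.8% every Sca-1- library lay above. One of the 9, Hey2, passed the filter on low counts only through the Sca-1+ libraries, so its call and separation are not independent of that filter. The median log2 fold change was 4.58 over the 10 genes and 0.07 over all genes. It was 4.5 over the general endothelial list, 3.85 over the arterial, 2.66 over the sinusoidal and 4.7 over the smooth muscle and pericyte list. The general, arterial and sinusoidal endothelial sums and the smooth muscle and pericyte sum were higher in every Sca-1+ library as well, the megakaryocyte, leukocyte, erythroid and marrow stromal sums were lower, and their part in these differences was not tested.

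**Figure D1:**
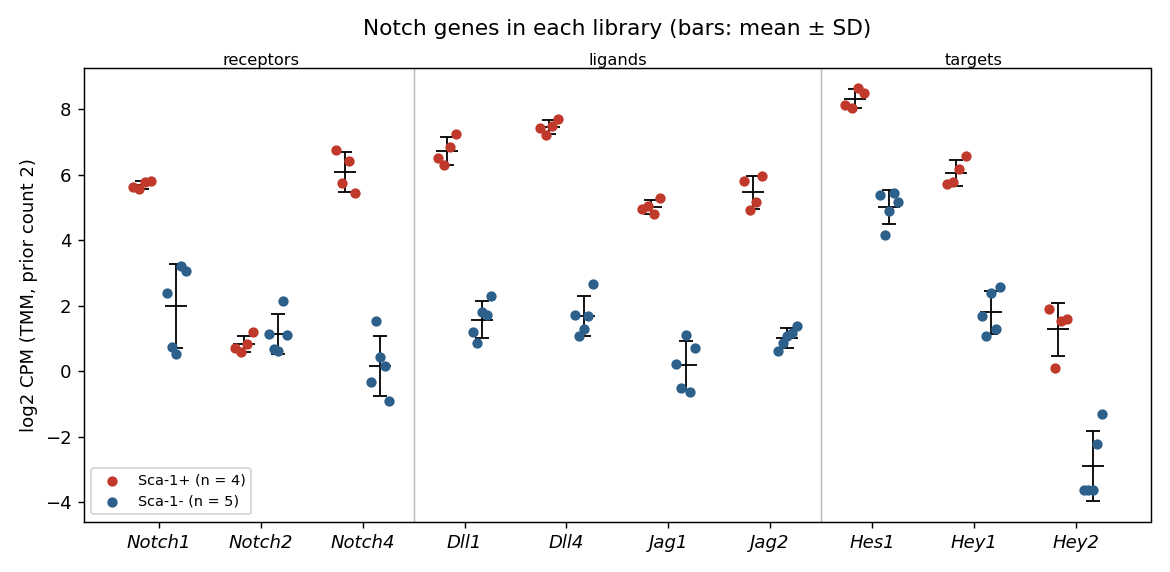
Level of each Notch gene in each library, on the y axis as log2 CPM with a prior count of 2, with Sca-1+ libraries in red (n = 4), Sca-1- libraries in blue (n = 5) and bars for mean ± SD. The fractions are apart in 9 genes and overlap in Notch2, and Hey2 is the gene with the lowest points.

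Of the receptors, Notch4 and Notch1 were higher in Sca-1+ cells and Notch2 was low in both fractions. Notch4, the receptor found mainly in endothelium (ENSMUSG00000015468, chr17:34564268-34588503 in GRCm38, GENCODE M21, as for all genes here), was at 109, 53.7, 85.2 and 43.3 CPM in Sca-1+ libraries 7, 13, 15 and 19. In Sca-1- libraries 8, 10, 14, 16 and 22 it was at 0.721, 2.79, 1.27, 1.03 and 0.448 CPM, from 11 to 40 counts each. Libraries 7 and 15 were the high ones among Sca-1+, and library 10 was the highest of the Sca-1- fraction. The log2 fold change was 5.89 (SE 0.55, 95% interval 4.66 to 7.11, edgeR adjusted p = 4.2e-05), the largest of the 10 genes.

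Notch1, the receptor required for arterial development (ENSMUSG00000026923, chr2:26457903-26516663), was at 48.8, 47.6, 55.2 and 55.4 CPM in the Sca-1+ libraries, in the same order. It was at 5.17, 1.61, 1.36, 9.2 and 8.31 CPM in the Sca-1- libraries. The Sca-1+ values were the closest together of any of the 10 genes, with a coefficient of variation of 7.96%, whereas in the Sca-1- fraction it was 71.2%, with libraries 10 and 14 low and 16 and 22 high. The log2 fold change was 3.33 (SE 0.55, 95% interval 2.10 to 4.55, edgeR adjusted p = 0.00086). Exons of Notch1 overlap the opposite-strand genes 0610009E02Rik (46 to 253 counts) and Gm13568 (2 to 171 counts). Since the kit does not mark strand, the count of Notch1 is uncertain, by an amount that these ranges do not measure. Notch1 itself had 23 to 277 counts in the Sca-1- libraries.

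Notch2, a receptor used by several blood cell lineages (ENSMUSG00000027878, chr3:98013527-98150361), was at 1.57, 1.43, 1.69 and 2.21 CPM in Sca-1+ and at 2.1, 1.54, 1.44, 4.38 and 2.08 CPM in Sca-1- libraries. The fractions overlapped, and library 16 stood highest. The log2 fold change was -0.42 (SE 0.46, 95% interval -1.45 to 0.60, edgeR adjusted p = 0.48), so a moderate difference in either direction was within the interval. The libraries held 22 to 132 counts of Notch2, and its exons overlap the same-strand gene Gm42820, which makes the count uncertain.

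All 4 ligands were higher in Sca-1+ cells. Dll4, the Delta-like ligand of arterial and sprouting endothelium (ENSMUSG00000027314, chr2:119325784-119335962), was at 170, 147, 180 and 210 CPM in the Sca-1+ libraries and at 3.18, 2.02, 2.38, 3.12 and 6.23 CPM in the Sca-1- libraries. It was the most abundant ligand in every Sca-1+ library, and library 22 was the high one of the other fraction. The log2 fold change was 5.70 (SE 0.36, edgeR adjusted p = 1.3e-05). Dll1, a Delta-like ligand also known in arterial endothelium (ENSMUSG00000014773, chr17:15367354-15376872), was at 90.8, 78.3, 115 and 152 CPM against 2.22, 1.75, 3.39, 3.19 and 4.89 CPM, with a log2 fold change of 5.13 (SE 0.36, edgeR adjusted p = 1.5e-05). Each of these genes has an opposite-strand neighbour across its exons, Gm14207 for Dll4 (0 to 651 counts) and A930024N18Rik for Dll1 (3 to 443 counts). The counts of Dll4 and Dll1 are uncertain for that reason, by an amount that these ranges do not measure. In the Sca-1- libraries Dll4 had 29 to 153 counts and Dll1 had 25 to 120.

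The Jagged ligands were less abundant than the Delta-like ligands in Sca-1+ cells. Jag1 (ENSMUSG00000027276, chr2:137081456-137116644), which in endothelium can compete with Dll4 for the receptor, was at 30.7, 33, 27.7 and 39.3 CPM in the Sca-1+ libraries. In the Sca-1- libraries it was at 1.08, 0.628, 2.08, 0.564 and 1.55 CPM. The highest Sca-1- library, 14, was far below the lowest Sca-1+ library, and the log2 fold change was 4.78 (SE 0.42, edgeR adjusted p = 3.5e-05). Jag2 (ENSMUSG00000002799, chr12:112907819-112929776), the other Jagged ligand, was at 55.5, 30.2, 36 and 62.6 CPM against 1.44, 1.75, 2.04, 2.19 and 2.52 CPM. Libraries 7 and 19 were its high Sca-1+ libraries, and the log2 fold change was 4.52 (SE 0.31, edgeR adjusted p = 1.5e-05).

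The target genes were also higher in Sca-1+ cells, from very different levels. Hes1, a repressor expressed in many cell types (ENSMUSG00000022528, chr16:30064384-30067796), was at 279, 261, 398 and 360 CPM in the Sca-1+ libraries. It was at 41.8, 17.8, 29.9, 43.8 and 35.8 CPM in the Sca-1- libraries, where it was the most abundant of the 10 genes in every library. The log2 fold change was 3.26 (SE 0.29, edgeR adjusted p = 3.6e-05), the smallest among the 9 that passed. Hey1, a repressor of arterial endothelium (ENSMUSG00000040289, chr3:8663359-8667256), was at 52.4, 54.5, 71.4 and 95.7 CPM against 3.12, 2.02, 5.18, 2.36 and 5.82 CPM, with a log2 fold change of 4.20 (SE 0.38, edgeR adjusted p = 3.7e-05). Library 19 was its high Sca-1+ library.

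Hey2, which acts with Hey1 in arterial development (ENSMUSG00000019789, chr10:30832359-30842801), was at 3.65, 0.988, 2.83 and 2.94 CPM in the Sca-1+ libraries, from 107, 29, 82 and 76 counts. In Sca-1- libraries 8, 10 and 14 it had 0 counts, below a limit of 3 counts that corresponds to 0.0996 to 0.209 CPM over all libraries, and in libraries 16 and 22 it had 4 and 8 counts (0.133 and 0.326 CPM). The fractions did not overlap, and library 13 was the low Sca-1+ library. Hey2 reached the minimum count of 10 of the filter only in Sca-1+ libraries. It was thus tested only because it was high there, and its separation is no independent support. The fitted log2 fold change of 4.64 (SE 1.06, 95% interval 2.30 to 6.99, edgeR adjusted p = 0.0051) depends on how the zero counts are treated and is not a bound. Limits set by counts cover counting error only, because the kit uses no molecular identifiers.

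Levels of different genes were compared as RPKM, which also divides by exon length. In Sca-1+ cells the order was Hes1 (159 ± 32.1 RPKM, SD, n = 4), Dll4 (45.9 ± 6.76), Dll1 (25.8 ± 7.71), Hey1 (21 ± 6.13), Notch4 (9.02 ± 3.71), Jag2 (6.61 ± 2.22), Jag1 (5.61 ± 0.846), Notch1 (3.64 ± 0.289), Hey2 (0.567 ± 0.247) and Notch2 (0.16 ± 0.0314). Libraries overlapped between Dll1 and Hey1, between Notch4 and Jag2 and between Jag2 and Jag1, and not between the other neighbours in that order. In Sca-1- cells Hes1 (16.6 ± 5.14 RPKM, SD, n = 5) came first, apart from all others, followed by Hey1 (1.13 ± 0.522), Dll4 (0.879 ± 0.432), Dll1 (0.732 ± 0.288), Notch1 (0.36 ± 0.256), Jag2 (0.285 ± 0.0596), Notch2 (0.214 ± 0.111), Jag1 (0.203 ± 0.11), Notch4 (0.155 ± 0.114) and Hey2 (0.02 ± 0.0311). From Hey1 on, each neighbour overlapped the next. Notch4 was thus the most abundant of the 3 receptors in Sca-1+ cells and had the lowest mean in Sca-1- cells.

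The make-up of the receptor and ligand pools was compared within libraries, as shares of the length-scaled counts of the 3 receptors or the 4 ligands, which needs no scaling between libraries. Notch2 made up 0.852%, 1.31%, 1.07% and 2.16% of the receptor counts in Sca-1+ libraries 7, 13, 15 and 19 and 30.1%, 23.7%, 34.6%, 34.4% and 23.2% in Sca-1- libraries 8, 10, 14, 16 and 22. The mean shares differed by -27.84 percentage points, Sca-1+ minus Sca-1- (exact permutation test over 126 splits, two-sided, p = 0.0079, the smallest p this design allows). Notch4 made up 68.46 ± 9.533% of the receptor counts in Sca-1+ and 25.94 ± 22.18% in Sca-1- libraries (difference 42.52 percentage points, exact permutation p = 0.024). The fractions overlapped for Notch4, since its share was 57.6% in Sca-1- library 10 and 40.8% in library 14, against 6.68% to 13.8% in the other three. That p rose to between 0.054 and 0.057 in 7 of the 9 fits that left out 1 library, those without Sca-1+ 7, 13 or 15 or Sca-1- 8, 14, 16 or 22, with differences of 37.71 to 46.24 points. Fewer libraries allow fewer splits and a larger smallest p, so these p-values cannot be set directly against that over 126 splits. For Notch1 the shares were 30.19 ± 8.984% and 44.88 ± 22.1% (exact permutation p = 0.25).

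Among the ligands, Dll4 made up 55.03 ± 2.611% in Sca-1+ and 41.23 ± 7.217% in Sca-1- libraries, with no overlap (difference 13.8 points, exact permutation p = 0.016). Jag2 had the larger share in the Sca-1- fraction, 14.37 ± 3.428% against 7.803 ± 1.836%, again with no overlap (exact permutation p = 0.016). Without Sca-1+ library 19 and Sca-1- library 10 that p became 0.057, from fewer possible splits. The remaining shares still did not overlap, with at most 10.1% in Sca-1+ and at least 10.6% in Sca-1- libraries. Dll1 was at 30.38 ± 3.319% and 34.63 ± 3.823% (exact permutation p = 0.13), and Jag1 at 6.796 ± 1.2% and 9.774 ± 4.641% (exact permutation p = 0.26). Exact p-values here and below are not adjusted for the 17 exact tests of the main comparison. Nor are they adjusted for the repeats under other settings, 77 for shares and 110 for relative levels.

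**Figure D2:**
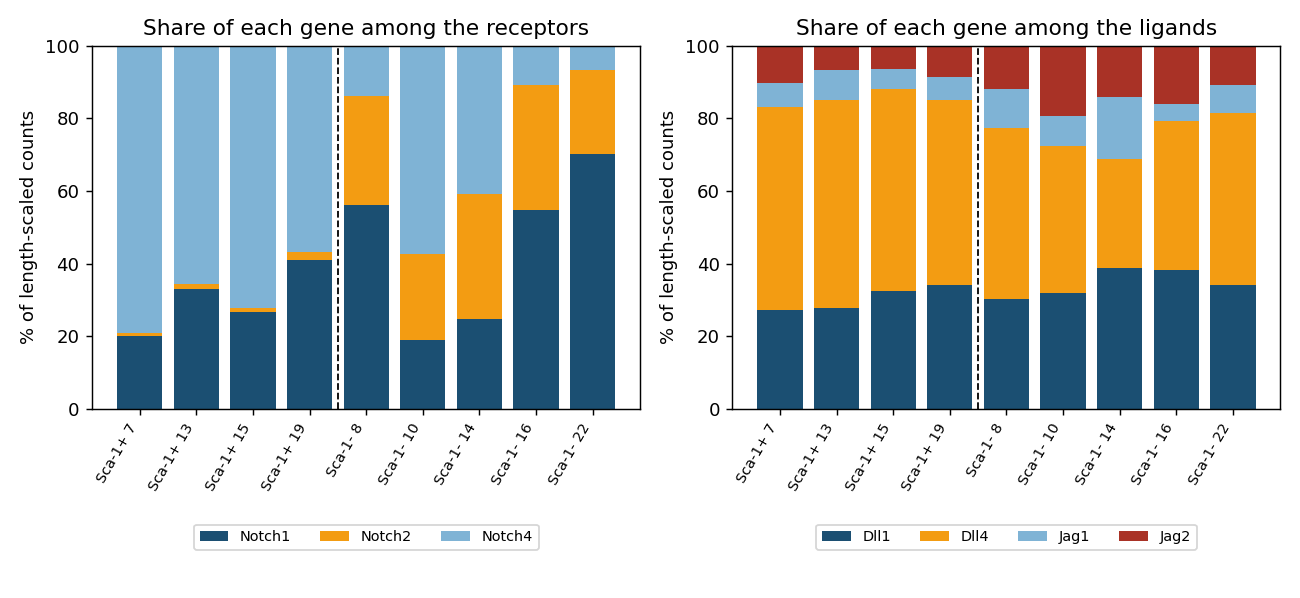
Share of each receptor (left) and each ligand (right) in the length-scaled counts of its pool, in percent on the y axis, with 1 bar for each library and Sca-1+ libraries left of the dashed line. Notch2 is a thin band in the Sca-1+ libraries, at most 2.16%, and lies between 23.2% and 34.6% in the Sca-1- libraries, and Dll4 is the largest ligand band in the Sca-1+ libraries.

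Since general endothelial genes differed as well, each Notch gene was set against the mean log2 CPM of 25 of them in the same library. That mean differed by 4.15 between the fractions, and the median log2 fold change of the 25 genes was 4.5. They included Tal1, which was lower in Sca-1+ cells (15.3 ± 1.626 against 129 ± 88.65 CPM). They also included Pecam1 and Esam (Esam at 1202 ± 46.51 against 1031 ± 844.6 CPM), which did not pass the test. The effect of these genes on the mean was not tested. Relative to that mean, Dll4 was higher in Sca-1+ cells by 1.62 and Dll1 by 0.998 on the log2 scale, and Hes1 fell by 0.84 and Notch2 by 4.45, each with no overlap between the fractions (exact permutation p = 0.0079, the smallest possible). For Hes1 the relative levels were -0.816 to -0.271 in Sca-1+ and -0.0172 to 0.644 in Sca-1- libraries. Notch4 differed by 1.77 (exact permutation p = 0.071), Jag1 by 0.69 (exact permutation p = 0.087), Jag2 by 0.29 (exact permutation p = 0.4), Hey1 by 0.11 (exact permutation p = 0.77), Hey2 by 0.02 (exact permutation p = 0.96) and Notch1 by -0.45 (exact permutation p = 0.44). Sca-1- library 10 had the lowest mean log2 CPM of the endothelial genes (3.66, against 4.74 to 5.18 in the other Sca-1- libraries, although its summed CPM was the highest of that fraction) and the highest megakaryocyte sum. It had a Notch4 value of -2.13, beside -6.1 to -4.4 in the other Sca-1- libraries, and without it Notch4 differed by 2.37 (exact permutation p = 0.029). Without Sca-1- library 14, Notch1 differed by -0.85 and Jag1 by 0.89 (exact permutation p = 0.029 for each). The choice of reference mattered, since against Cdh5 alone Dll4 differed by 0.39 (exact permutation p = 0.37), Dll1 by -0.23 (exact permutation p = 0.55) and Notch1 by -1.68 (exact permutation p = 0.016). Against Cdh5 the direction also turned for Jag1 (-0.54), Jag2 (-0.94), Hey1 (-1.12) and Hey2 (-1.21), with exact permutation p-values of 0.4, 0.079, 0.095 and 0.071. When the edgeR fit itself was scaled to the 25 endothelial genes, 2 of the 10 genes were higher in Sca-1+ cells, Dll1 and Dll4, and 2 were lower, Notch2 and Hes1. That scaling moved the median log2 fold change of all genes to -4.13.

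**Figure D3:**
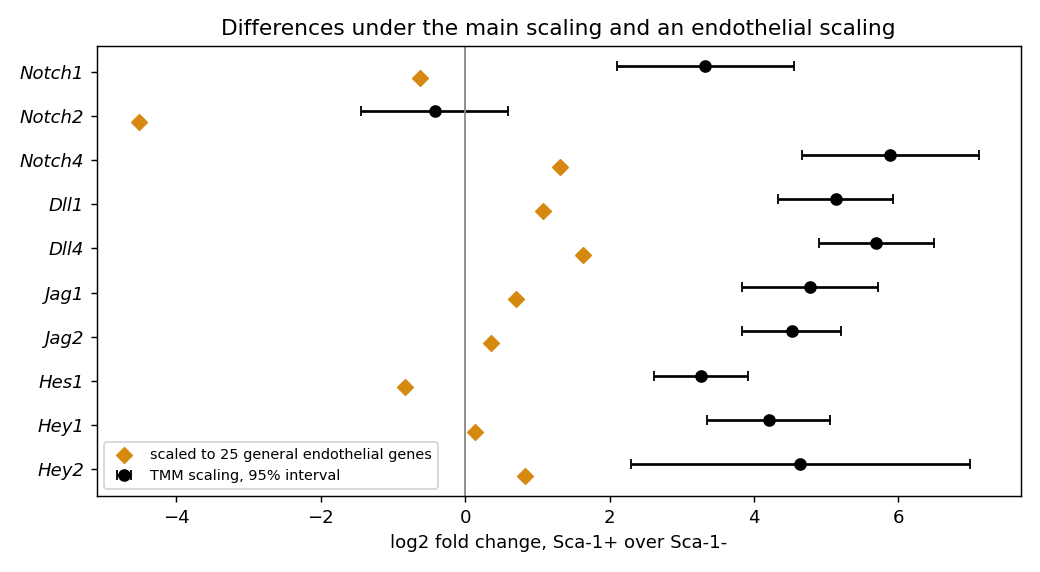
Log2 fold change of each Notch gene, Sca-1+ over Sca-1- on the x axis, under TMM scaling (black, with 95% intervals) and scaled to 25 general endothelial genes (orange, without intervals). The orange points lie to the left of the black ones for every gene, with Notch1, Notch2 and Hes1 below 0.

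**Figure D4:**
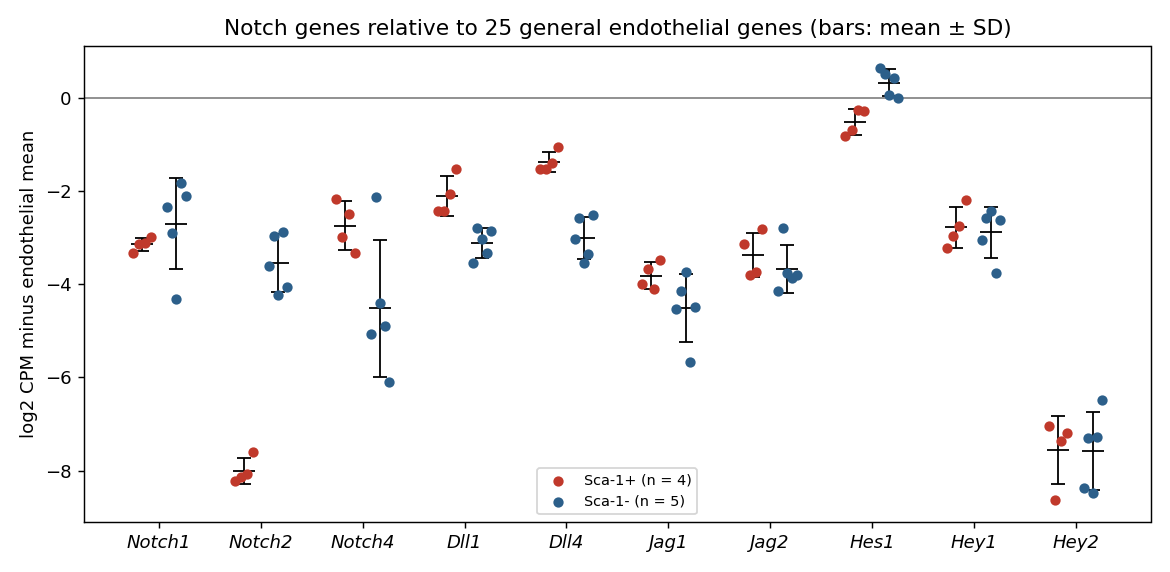
Level of each Notch gene minus the mean of 25 general endothelial genes in the same library, on the y axis in log2 CPM, with Sca-1+ libraries in red (n = 4), Sca-1- libraries in blue (n = 5) and bars for mean ± SD. The fractions do not overlap in Notch2, Dll1, Dll4 and Hes1, and Sca-1- library 10 is the high Notch4 point at -2.13.

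The 10 genes varied differently between libraries of the same fraction. After the mean of each fraction was removed, the correlation of log2 CPM over the 9 libraries was above 0 in 33 of 45 pairs, with a median r of 0.362 and the highest values for Jag1 with Hey1 (0.866), Dll1 with Hey1 (0.841) and Dll4 with Hey2 (0.811). Notch4 had a negative r with each of the other 9 genes, from -0.787 with Dll4 to -0.179. By the same measure, the gene most like each member among 9859 candidates was Arhgef15 for Notch1 (r = 0.995), Abr for Notch2 (0.976), Zfp276 for Notch4 (0.935), Ndrg3 for Dll1 (0.967), Ablim1 for Dll4 (0.977), Magi3 for Jag1 (0.98), Sfpq for Jag2 (0.987), Dock9 for Hes1 (0.95), Cpm for Hey1 (0.959) and Dhdds for Hey2 (0.972). These values are descriptions over points that share library and scaling, and high values are common when many candidates are compared over so few libraries.

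Of 82 other genes of the Notch pathway, 74 could be tested, of which 30 passed the test as higher and 11 as lower (median log2 fold change 0.50), beside 23.3% and 21.4% of all genes. The lower count was 5 without Sca-1+ library 7 or 13, 6 without Sca-1+ library 15 and 7 without Sca-1- library 10, and scaled to the endothelial genes the counts were 4 higher and 60 lower. By role, the targets and the other receptors and ligands had the largest median differences, whereas the median was 0.03 for the proteases and -0.25 for the nuclear complex. The counts given by role here and below stand beside the same 23.3% and 21.4% of all genes. Of the 15 other targets tested, 10 were higher and 1 was lower (median log2 fold change 3.74). Gja5, the arterial gap junction protein connexin 40, was at 53.9 ± 29.06 against 0.3409 ± 0.1987 CPM (log2 fold change 7.27, edgeR adjusted p = 1.8e-05). Nrp1, a coreceptor of VEGF, was at 766.6 ± 79.74 against 7.022 ± 5.733 CPM (log2 fold change 6.76, edgeR adjusted p = 8.6e-05), and Bhlhe41, a circadian repressor, was lower at 2.17 ± 1.997 against 12.15 ± 8.747 CPM (edgeR adjusted p = 0.026). Hes5, whose window is printed above and which was chosen after its values were seen, was at 0.7283 ± 0.6294 and 0.6054 ± 1.194 CPM (edgeR adjusted p = 0.91). Kdr, Flt1 and Flt4 in this list are endothelial markers as well, and Gja4 is also an arterial marker.

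Of 9 receptors and ligands outside the 10 genes, 4 were tested, 3 were higher and 0 were lower. Notch3, the receptor of vascular smooth muscle and pericytes, was at 8.49, 2.35, 11.7 and 26.5 CPM in the Sca-1+ libraries and at 0.541, 0, 0, 0.996 and 0.0407 CPM in the Sca-1- libraries (log2 fold change 5.21, SE 1.21, edgeR adjusted p = 0.0056). The smooth muscle and pericyte sum, which includes Notch3, had the same order among the Sca-1+ libraries, 972, 687, 1420 and 1670 CPM, and its part in the result was not tested. Egfl7, a secreted endothelial protein that binds Notch receptors, was at 959.6 ± 341.2 against 34.51 ± 17.19 CPM (edgeR adjusted p = 6.1e-05). Of the 7 glycosyltransferases that modify the receptors, 5 were higher and 0 lower, among them the Fringe enzymes Mfng (93.4 ± 10.63 against 11.8 ± 5.439 CPM, edgeR adjusted p = 4e-04) and Lfng (23.9 ± 4.476 against 4.449 ± 3.988 CPM, edgeR adjusted p = 0.0073).

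The 4 ubiquitin ligases of the ligands, which enable ligand uptake, held opposite changes in related genes. Neurl1b was higher in Sca-1+ cells, at 13.82 ± 3.58 against 0.2534 ± 0.232 CPM (edgeR adjusted p = 0.00054), and Mib2 was higher at 15.52 ± 7.345 against 5.291 ± 1.749 CPM (edgeR adjusted p = 0.01). Neurl1a had 21 counts in Sca-1+ library 7 and 0 in the other three, and was at 43, 66, 35.4, 19.6 and 27.4 CPM in the Sca-1- libraries (edgeR adjusted p = 0.00059). It was highest in library 10 and lowest in library 16, as was the megakaryocyte sum (120000 and 27800 CPM), whose part in the result was not tested.

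Of 10 receptor protease genes, 2 were higher, 1 was lower and 7 did not pass, beside 23.3% higher and 21.4% lower among all genes tested. Ncstn, a subunit of gamma-secretase, was higher (258.3 ± 50.76 against 101.9 ± 23.91 CPM, edgeR adjusted p = 0.0015), as was Adam17 (log2 fold change 0.78, edgeR adjusted p = 0.018), and Adam10 was lower (213.6 ± 25.48 against 439.7 ± 204.5 CPM, edgeR adjusted p = 0.032). Of 9 genes of the nuclear complex and coactivators, 1 was higher and 2 were lower. Maml3, a Mastermind-like coactivator, was lower at 7.957 ± 0.8696 against 68.75 ± 50.82 CPM (edgeR adjusted p = 0.0015), as was Snw1 (log2 fold change -0.55, edgeR adjusted p = 0.033), and the acetyltransferase Kat2b was higher (1.17, edgeR adjusted p = 0.013). Rbpj itself, chosen after its values were seen, was at 8.073 ± 2.251 and 8.716 ± 2.323 CPM (log2 fold change -0.11, SE 0.34, edgeR adjusted p = 0.81).

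Of 14 corepressors, 5 were higher and 4 were lower, beside 23.3% higher and 21.4% lower among all genes tested. Ctbp2 (log2 fold change 1.96, edgeR adjusted p = 0.00012) and Tle1 (1.80, edgeR adjusted p = 0.00059) were higher, and Tle6 (-2.85, edgeR adjusted p = 0.00012) and Spen (-1.28, edgeR adjusted p = 0.048) were lower. Of 11 regulators of receptor turnover, 2 were higher, Dtx3l (1.52) and Dtx3 (1.30, edgeR adjusted p = 0.026 for each), and 2 were lower. The lower ones were Itch (-1.06, edgeR adjusted p = 0.049) and Dtx1, a Deltex ubiquitin ligase with 1 count over all Sca-1+ libraries and 170, 20, 1, 350 and 463 counts in the Sca-1- libraries (edgeR adjusted p = 0.002).

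**Figure D5:**
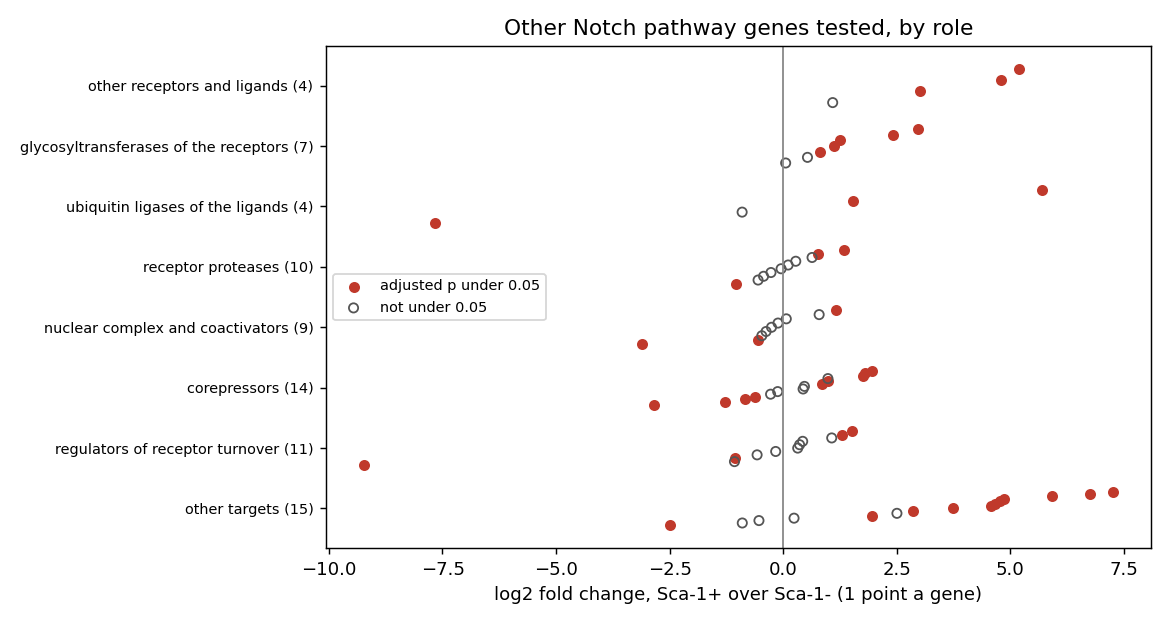
Log2 fold change, Sca-1+ over Sca-1- on the x axis, of the 74 other Notch pathway genes tested, with 1 point for each gene, arranged by role, and filled points for an adjusted p under 0.05. The points of the other targets reach 7.27 (Gja5), and most points of the proteases and the nuclear complex lie near 0, with Maml3 apart at -3.11.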

How the data were processed

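RNA from sorted BM ECs (2 ng total RNA a library, SMART-Seq v4, which keeps neither strand nor molecular identifiers) was sequenced in 9 libraries. The authors deposited raw whole-number read counts per gene in 1 table, with all sample columns used here. The submitters' processing notes name STAR, featureCounts and mm10; versions and strand setting were not given in the sources used here. GENCODE M21 (GRCm38) gave coordinates, exon lengths and overlaps and held 45229 of the 46078 identifiers.

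The fit used edgeR 4.0.16 under R 4.3.3, with filterByExpr defaults (minimum count 10, minimum total 15), TMM, a two-sided quasi-likelihood F-test and Benjamini-Hochberg adjustment over 15937 genes, threshold 0.05. Log2 CPM used a prior count of 2. On simulated data for this comparison (15496 genes), 30.5% of genes changed by 2 and 56.1% of genes changed by 3 on the log2 scale were recovered. Only 200 genes were set to change there, whereas 23.3% and 21.4% of genes were called in the measured data. The adjusted threshold is stricter with few changed genes, so these percentages do not measure recovery in the measured data. Shares and levels relative to endothelial genes were compared with two-sided exact permutation tests over 126 splits. Alternatives included DESeq2 1.42.0 and limma 3.58.1 (voom).

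The 10 genes, the 82 pathway genes and the marker lists were chosen with earlier results of these data known. Beyond the 10 genes, up to 2 of the largest and 2 of the smallest significant changes in each role (average log2 CPM of at least 1) are named, except where marked. Likeness used genes with an average log2 CPM of at least 3. No 2 libraries of a fraction agreed within sampling noise.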

Additional observations from a re-analysis of the deposited data

How the results depend on the processing

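Outside the endothelial scaling, the 9 higher genes kept their direction and passed the threshold under each of the 20 other settings (other normalizations, filters and tests, a robust fit, the replicate block, the same 6 libraries without it, leaving out Sca-1+ 19 with Sca-1- 10, and leaving out each library), with a highest adjusted p of 0.029, for Hey2, and Notch2 did not pass (adjusted p 0.26 to 0.92). Scaled to the 25 endothelial genes, 2 of the 10 genes were higher and 2 lower, with log2 fold changes of -0.63 for Notch1, -4.52 for Notch2 (adjusted p = 1.6e-05), 1.32 for Notch4, 0.70 for Jag1, 0.36 for Jag2, -0.83 for Hes1 (adjusted p = 0.015), 0.13 for Hey1 and 0.83 for Hey2, and 4 other pathway genes were higher and 60 lower. This follows from its construction, as it moved the median of all genes to -4.13 (253 genes higher, 13945 lower). With library size only the median was 0.43, and 63.1% of all calls were higher, against 52.1% with TMM. The number of other pathway genes lower was 5 with library size only, 7 without the filter, 3 with the replicate block of consecutive end numbers (7 and 8, 13 and 14, 15 and 16), 5 in the same 6 libraries without the block and 7 without Sca-1+ 19 and Sca-1- 10, and leaving out 1 library gave 5 to 12 lower (5 without Sca-1+ 7 or 13, 6 without Sca-1+ 15, 7 without Sca-1- 10) and 25 to 30 higher. The cause was not tested. Deviations of the 3 pairs correlated at r = 0.147, 0.148 and 0.042, in each case the highest r of that Sca-1+ library with any Sca-1- library. The other pairs of a Sca-1+ and a Sca-1- library ran from -0.191 to 0.065. The labels do not state a pairing, so the end numbers were used to pair libraries only in the block above. Whether the libraries are paired was not tested. The titles of Sca-1+ 15 and Sca-1- 16 share a further token, and those of Sca-1+ 13 and Sca-1- 14 and 22 share another, but the labels do not say what the tokens mark, and a shared animal or batch was not tested.

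Leaving out 1 library moved the difference in share to between 37.71 and 50.43 points for Notch4, and without Sca-1+ 19 and Sca-1- 10 that of Jag2 was -5.55 (exact permutation p = 0.057). The Jag2 shares still did not overlap there, and fewer splits were possible. Relative to Cdh5 alone, the differences were -1.68 for Notch1, -0.23 for Dll1, 0.39 for Dll4, -0.54 for Jag1, -0.94 for Jag2, -1.12 for Hey1 and -1.21 for Hey2. Relative to the 25 endothelial genes without Sca-1+ 19 and Sca-1- 10 they were 2.57 for Notch4 (exact permutation p = 0.029, the smallest p those libraries allow), -0.00716 for Hey1 and -0.0327 for Hey2. Leaving out 1 library gave ranges of 1.38 to 2.37 for Notch4, -0.85 to -0.23 for Notch1, 0.40 to 0.89 for Jag1, -0.11 to 0.26 for Hey1 and -0.20 to 0.38 for Hey2. Hey1 turned negative without Sca-1+ 19 (-0.08) or Sca-1- 16 (-0.11), and Hey2 without Sca-1+ 7 (-0.15), 15 (-0.04) or 19 (-0.10) or Sca-1- 8 (-0.18) or 14 (-0.20). At this depth Hey2 had 0 to 8 counts in the Sca-1- libraries.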
